A study of Drosophila melanogaster with 12 samples.

Results

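The genes described here encode the proteins of the cytoplasmic ribosome of Drosophila melanogaster, with a few related genes marked -like. They were chosen by name: every gene whose FlyBase symbol begins with RpL (large subunit) or RpS (small subunit), leaving out the mitochondrial mRp genes. The annotation held 92 such genes. Of these, 77 were among the 10422 genes with counts, and 71 were among the 7645 that passed the expression filter and were tested. The remaining 15 annotated genes had no row in the tables analysed here, among them RpS5a, RpL14, RpS20, RpL23A, RpL36A, RpL7-like, RpS16, RpL22-like, RpS19b, RpS28a, RpS7, RpS28-like, RpL27A and RpS12.

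Every ribosome holds a single copy of most of these proteins, so their mRNAs are made in matched, large amounts in all cells, and flies with only 1 working copy of many of the genes develop slowly and have short bristles, the Minute phenotype. In mammals the same mRNAs begin with a run of pyrimidines through which growth signals set their translation. In flies many of their genes start transcription at a pyrimidine-rich initiator of their own.

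RNA was measured by xRIP-3′-seq. Heads of adult flies were UV-cross-linked, protein was purified with beads carrying an anti-Flag antibody, and the 3′ ends of the recovered RNA were sequenced. A read stands for a transcript end, so levels of different genes were compared without a correction for length. The 12 libraries fall into 3 groups of 4. Pum xRIP libraries came from pumFlag flies, in which the endogenous Pumilio protein (Pum), a repressor that binds the 3′ UTR of mRNAs, carries a Flag-HA tag at its C-terminus. Control xRIP libraries came from w118 flies (so spelled in the labels, w1118 in the study's methods), which have no tag and went through the same purification. Input libraries are head homogenate: 1 of pum heads, 1 of w118 heads and 2 that the labels call mixed genotype and the count tables name fne and rbp9, with nothing more on their makeup in the labels. The labels call the genotype of all samples wt, and nothing says whether replicates came from separate cultures of flies, so p-values measure the spread between these libraries.

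Gene counts summed to between 3050717 and 5051009 in Pum xRIP libraries, 3342790 and 4485996 in control xRIP libraries and 9563433 and 13726254 in inputs. The transcript of pum itself, as a check of the labels, was at 1112 to 2420 CPM (gene counts scaled to library size with the trimmed mean of M values, TMM) in Pum xRIP libraries, 0 to 47.5 CPM in control xRIP libraries and 38.2 to 76.2 CPM in inputs. The purified material also differed in markers of cell types. Of the 6 neuronal markers used, the study counts brp, Syt1 and VAChT as Pum targets. Summed over the 6, levels were 5123 to 5837 CPM in Pum xRIP libraries, 321 to 531 CPM in control xRIP libraries and 1932 to 2590 CPM in inputs. Over 4 muscle markers they were 515 to 3604, 8497 to 19924 and 499.7 to 2589 CPM in the same order, and over 3 male germline and reproductive tract markers 0 to 2.97, 248 to 508 and 3.15 to 86.9 CPM. Over 4 photoreceptor markers they were 10336 to 11421.5, 1798 to 2791 and 7666 to 12021 CPM. Over 3 female fat body markers they were 4307 to 6330, 1789 to 2867 and 4776 to 11629 CPM. Over 4 glial markers they overlapped between all groups, at 1024 to 1846, 1136 to 1562 and 1296 to 2670 CPM. Over 2 fat body markers they were 60.5 to 160, 15.6 to 49.6 and 30.7 to 159 CPM. None of the listed markers was at 0 in all inputs. The part of these differences in the results below was not tested. A different recovery of these RNAs in the purification, fewer cells of a type and less RNA per cell cannot be told apart.

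Ribosomal protein genes made up a large share of every library, and the largest in the purification from untagged flies. Their summed share of all gene counts was 18.6, 17.0, 19.5 and 18.6% in the 4 Pum xRIP libraries, 29.0, 28.7, 29.8 and 28.1% in the control xRIP libraries, and 12.1, 11.9, 13.9 and 12.8% in the inputs. The 3 groups did not overlap. The mean was 18.4% ± 1.03 in Pum xRIP and 28.9% ± 0.697 in control xRIP, against 12.7% ± 0.918 in input (SD, n = 4 each). The inputs of pum and w118 heads alone held 12.1 and 11.9%, so that the xRIP libraries of each fly line stood above the input of the same line. Both subunits followed the order of the whole: RpL genes held 11.4% ± 0.695, 17.1% ± 0.340 and 7.76% ± 0.585 of counts in Pum xRIP, control xRIP and input, and RpS genes 7.05% ± 0.398, 11.8% ± 0.384 and 4.92% ± 0.334 (SD, n = 4 each). These shares need no scaling between libraries, but a share also depends on what else a library holds.

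**Figure D1:**
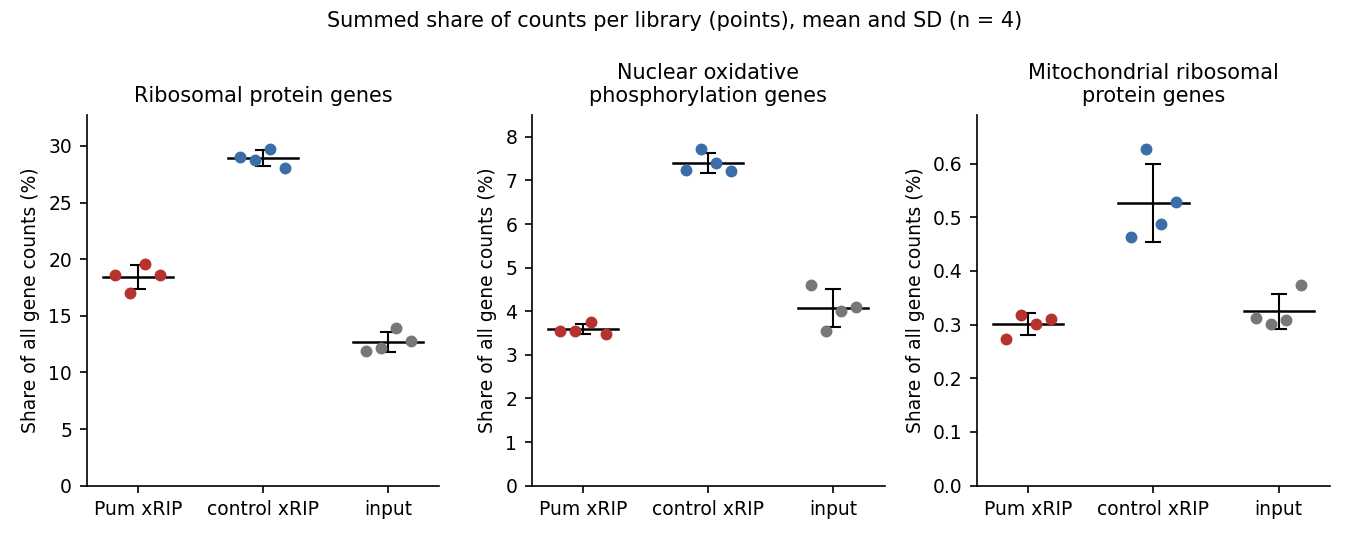
Share of all gene counts (percent, linear axes from 0) taken by ribosomal protein genes, nuclear genes of oxidative phosphorylation and mitochondrial ribosomal protein genes, with a point per library, the mean (bar) and the SD (whisker, n = 4). Ribosomal protein genes held 28.1 to 29.8% of control xRIP libraries, above the 17.0 to 19.5% of Pum xRIP libraries and the 11.9 to 13.9% of inputs.

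The rise in control xRIP over input ran through most of the family. Calls here need both an adjusted p under 0.05 and a log2 fold change above 1 or below -1 (edgeR quasi-likelihood test, Benjamini-Hochberg adjustment over all genes tested). Of the 71 tested members, 46 were called higher in control xRIP relative to input and 1 lower, where 1.82% of all genes tested were called higher and 10.7% lower. These 46 genes were 33.1% of the 139 genes called higher in all. The median log2 fold change was 1.32 over members and -0.83 over all genes tested, and in 52 members every control xRIP library was above every input, as in 4.22% of all genes tested. In 2 members every control xRIP library was below every input, against 31.8% of all genes tested. Of the 46 genes, 30 were called under each of the 20 alternatives. Of genes of other protein complexes, 24 of 57 nuclear oxidative phosphorylation genes were called higher and 0 lower (median 0.94), and 1 of 69 mitochondrial ribosomal protein genes was called higher (median 0.80).

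Few single members passed the test in Pum xRIP against input, and more did against control xRIP. Of the 71, 1 was called higher and 3 lower in Pum xRIP relative to input, where 0.549% of all genes tested were called higher and 4.87% lower. The median log2 fold change was 0.36 over members and -0.54 over all genes tested, and 13 members were higher in every Pum xRIP library than in every input, against 5.57% of all genes tested, and 5 were lower in every one, against 22.6%. The count of higher calls rests on the scaling: with DESeq2 size factors in edgeR, 18 members were called higher and 2 lower, and over all genes tested the share of calls that were higher was 24.3% in place of 10.1%. Against control xRIP, the same libraries had 0 members called higher and 27 lower, where 7.72% of all genes tested were called higher and 4.45% lower. At an unadjusted p below 0.05 edgeR and DESeq2 both gave 0 higher members as well. The median was -0.94 over members and 0 over all genes tested, and 49 members were lower in every Pum xRIP library than in every control xRIP library, as in 5.70% of all genes tested, and 0 were higher in every one, against 9.95%. The drop was not particular to this family. Of 57 nuclear oxidative phosphorylation genes, 41 were called lower and 0 higher (median -1.31). Of 69 mitochondrial ribosomal protein genes, 4 were called lower and 0 higher (median -0.87). DESeq2 size factors and library totals each gave 4 members called lower, and both moved the median of all genes to 0.27 and that of members to -0.67. With these scalings 34 and 35 members passed an adjusted p of 0.05 at any fold change, all lower, against 47 with TMM, and the higher share of all calls was 73.4 and 74.4% in place of 63.4%. For Pum xRIP relative to input, the 3 lower calls became 1 without the input of w118 heads, without either input of mixed genotype or without Pum xRIP replicate 2, and 2 without the input of pum heads. For Pum xRIP relative to control xRIP, leaving out control xRIP replicate 3 or 4 left 12 calls, leaving out replicate 1 or 2 left 15, and leaving out the input of pum heads left 15. Each pair of these comparisons shares a group of libraries, so their values are not independent. Set against the median of all genes, the members' median was higher by 0.90 in Pum xRIP over input and by 2.16 in control xRIP over input.

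**Figure D2:**
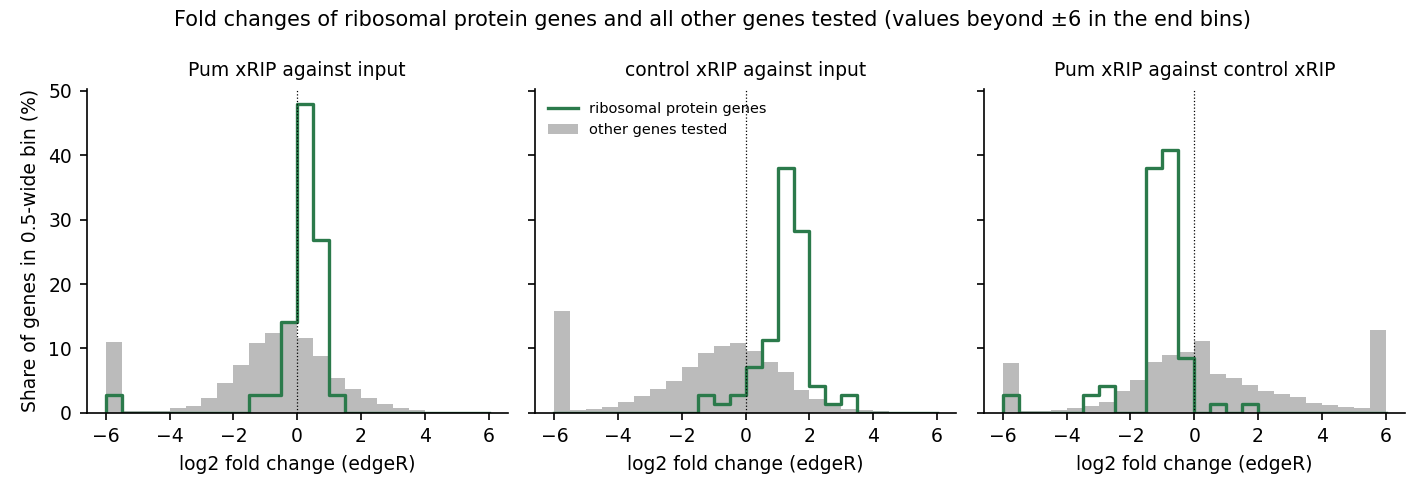
Distribution of log2 fold changes (horizontal axis, bins of 0.5) as a share of genes (vertical axis, percent) for ribosomal protein genes (green line, 71 genes) and all other genes tested (grey bars), in Pum xRIP against input, control xRIP against input and Pum xRIP against control xRIP. Members form a narrow peak around 0.36, 1.32 and -0.94, inside the much wider spread of other genes.

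By level, the members fell into 2 classes of level with a gap between them: 58 had a mean input level of 278 to 6006 CPM (median 2093), and 19 had 0 to 74.6 CPM (median 4.05). The line between them, 200 CPM, was chosen after the values were seen. Between libraries of a group, the abundant members varied less than the 667 other genes above that line in input. The median coefficient of variation was 18.7, 14 and 15.5% in Pum xRIP, control xRIP and input for members, and 34.1, 37.5 and 25.1% for the other genes. These sets were not matched for level in any group, and the part of level in the difference was not tested. Among the 58, 46 were called higher in control xRIP over input, from 1.04 for RpL5 to 2.12 for RpS10b on the log2 scale, and 56 were above 0. In Pum xRIP against control xRIP all 58 were below 0, from -0.23 to -1.47. By the canonical transcript of the annotation, the mRNAs are short, with a median length of 828.5 bases among the abundant members, against 2050 over all coding genes tested. Across the 58 members, length and the change in control xRIP over input had a Spearman rho of -0.05, and across 7329 other genes rho was -0.48. The members span only 288 to 3835 bases, against 165 to 71382 over all coding genes tested. The part of this narrower range in the lower rho was not tested. These are correlations across genes in the same libraries, and genes are not independent replicates.

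**Figure D3:**
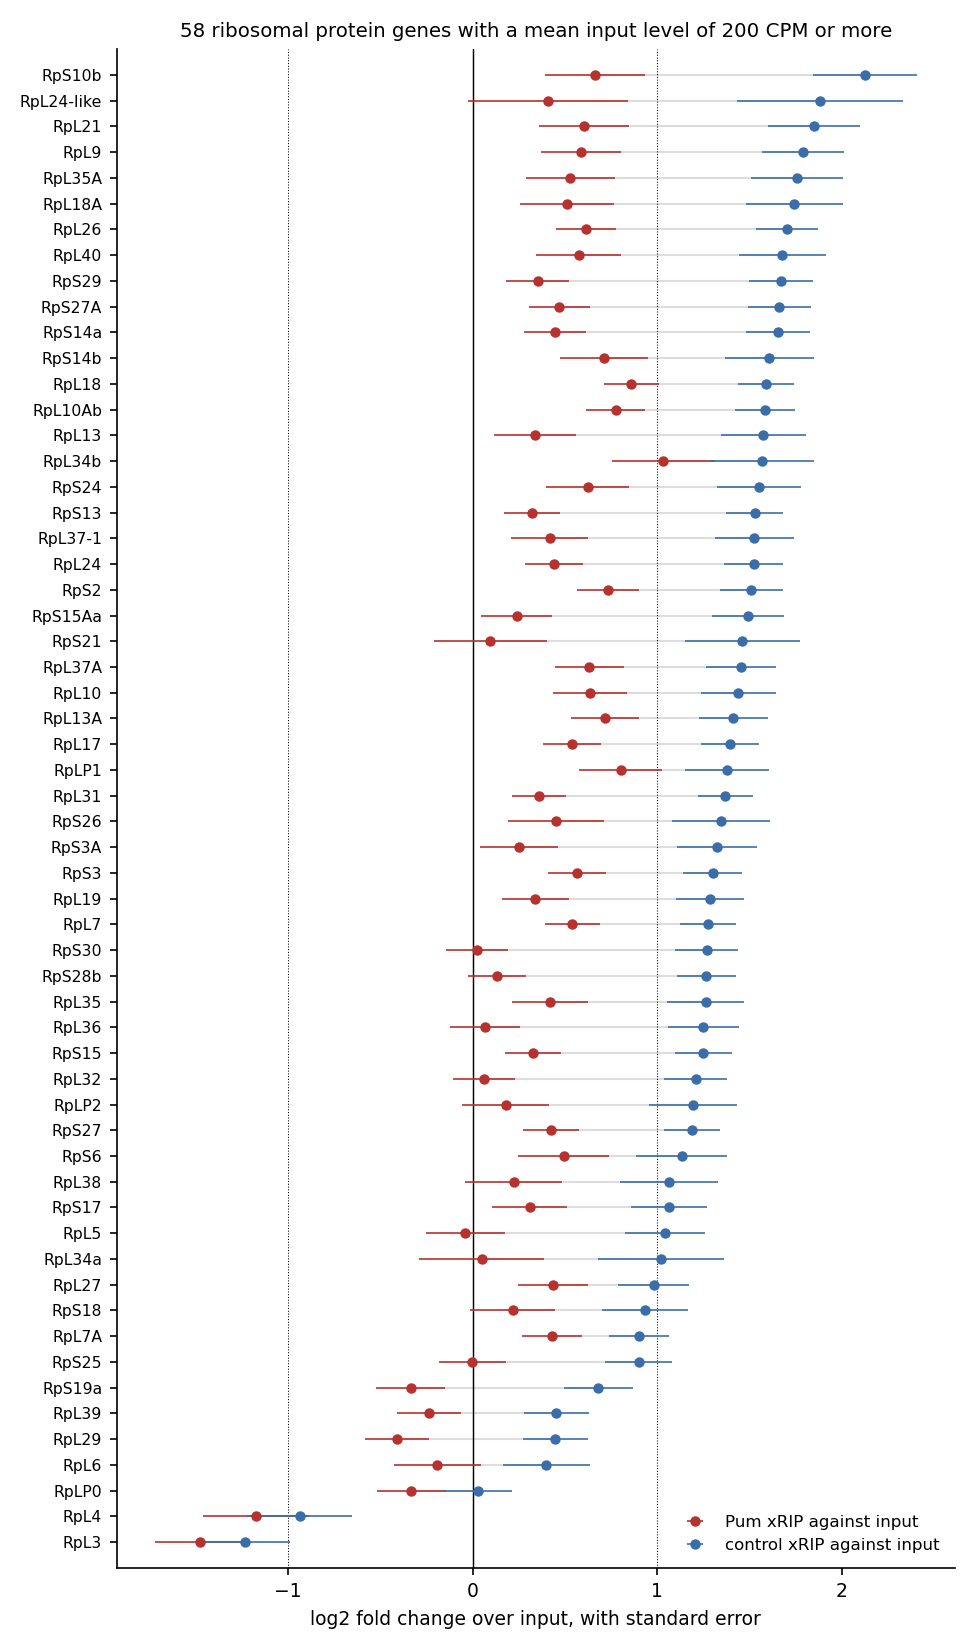
Log2 fold change over input (horizontal axis, with standard error) of the 58 abundant ribosomal protein genes (rows) in Pum xRIP (red) and control xRIP (blue), ordered by the blue points, with dotted lines at -1 and 1. Most blue points lie beyond 1 and most red points between 0 and 1, and RpL3 and RpL4 at the bottom are below 0 in both.

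The 5 most abundant members in input were all core subunits. RpS14a, of the small subunit platform, had 7775, 6013, 9725 and 9211 CPM in Pum xRIP and 19881, 14822, 20021 and 20838 CPM in control xRIP, against 7345, 5142, 5604 and 5933 CPM in input. It was higher by 1.65 ± 0.17 (log2, SE) in control xRIP relative to input (edgeR adjusted p = 6.58e-05) and 1.21 ± 0.17 lower in Pum xRIP than in control xRIP (adjusted p = 0.000554, call lost in 5 of 21 alternatives), and its log2 change of 0.45 in Pum xRIP over input did not pass (adjusted p = 0.138). The control xRIP libraries were apart from both other groups, which overlapped. RpS15, of the small subunit head, averaged 7344 ± 232, 13912 ± 1889 and 5851 ± 1286 CPM in Pum xRIP, control xRIP and input (SD, n = 4 each), and RpL24 of the large subunit 5083 ± 833, 10762 ± 1169 and 3746 ± 567 CPM. RpL7A, of the large subunit, had the lowest change of the 5 in control xRIP over input: 7807 ± 789 CPM in Pum xRIP and 10819 ± 1223 CPM in control xRIP, against 5793 ± 1361 CPM in input, a log2 change of 0.90 in control xRIP over input that was below the fold threshold (adjusted p = 0.00352). RpLP1, of the acidic stalk that recruits elongation factors, averaged 8231 ± 1716, 12275 ± 2851 and 4722 ± 1315 CPM. In Pum xRIP it held 4.90% ± 0.566 of all member counts and RpS14a 4.87% ± 0.524, a difference within the spread. RpS14a held the largest mean share in control xRIP (5.93% ± 0.658) and in input (4.61% ± 0.320).

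RpL3 and RpL4 went against the family. Both encode large proteins that reach into the core of the large subunit, RpL3 next to the peptidyl transferase centre and RpL4 along the exit tunnel. RpL3 had 1043, 997, 1367 and 1517 CPM in Pum xRIP and 1054, 1600, 1306 and 1867 CPM in control xRIP, against 4808, 2678, 3090 and 3109 CPM in input. Every xRIP library was below every input and the xRIP groups overlapped. RpL3 was 1.47 ± 0.24 lower in Pum xRIP (adjusted p = 0.00518) and 1.23 ± 0.24 lower in control xRIP (adjusted p = 0.00561) than in input on the log2 scale, and it was the only member called lower in control xRIP. That call held under all 20 alternatives, whereas 1 of 20 lost the call in Pum xRIP over input. In Pum xRIP against control xRIP its log2 change was -0.24 ± 0.24 (adjusted p = 0.632) and lay between -0.35 and 0.07 over the alternatives. As a share of all member counts, which no scaling affects, RpL3 was 0.736% ± 0.105 in Pum xRIP and 0.457% ± 0.0989 in control xRIP, against 2.6% ± 0.443 in input (SD, n = 4 each). Such a share also depends on the other members. Together the members held 18.4% of counts in Pum xRIP and 28.9% in control xRIP, and the share orders these groups opposite to the CPM values.

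RpL4 had the same order of groups at a lower level. It had 406, 380, 392 and 431 CPM in Pum xRIP and 274, 478, 683 and 459 CPM in control xRIP, against 764, 825, 1058 and 978 CPM in input, again with no overlap between xRIP and input. It was 1.17 ± 0.29 lower in Pum xRIP than in input (adjusted p = 0.0277) and 0.94 ± 0.29 lower in control xRIP (adjusted p = 0.0467), which was below the fold threshold. It passed that threshold and was called lower in control xRIP in 5 of 20 alternatives: with library totals (-1.05), and without control xRIP replicate 2, 3 or 4 or the input of pum heads (-1.18 to -1.44). The call in Pum xRIP was lost under 9 of 20 alternatives, with adjusted p up to 0.38.

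Of the 58 abundant members, 11 were called in neither direction in control xRIP over input. Besides RpL4 and RpL7A, 5 with log2 changes under 0.7 are given here, all but RpLP0 chosen after their values were seen. RpLP0, the base of the stalk on which RpLP1 sits, had 1410 ± 105 CPM in Pum xRIP and 1813 ± 270 CPM in control xRIP, against 1776 ± 314 CPM in input (SD, n = 4 each), and its log2 change in control xRIP over input was 0.03 ± 0.19 (adjusted p = 0.977). RpL6, RpL39, RpL29 and RpS19a had log2 changes of 0.40, 0.45, 0.45 and 0.68 in control xRIP over input, none called, and -0.19, -0.24, -0.41 and -0.34 in Pum xRIP over input. RpS19a passed the adjusted p in control xRIP over input (0.0306) but not the fold threshold, and in Pum xRIP it was called lower relative to control xRIP (-1.02, adjusted p = 0.00367). The canonical annotated mRNA of RpL39 (288 bases) is the shortest of the abundant members and that of RpL3 has 1610 bases. The longest, at 3835 bases, is that of RpL5, which was called higher. These are annotated lengths, and the length of the counted mRNAs was not measured.

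At the other end stood RpS10b, a small subunit protein near the mRNA entry. It had 1152, 1640, 2037 and 2314 CPM in Pum xRIP and 4545, 6075, 3551 and 5462 CPM in control xRIP, against 784, 881, 1240 and 1600 CPM in input. Control xRIP libraries were above all others, and Pum xRIP and input overlapped. Its log2 change of 2.12 ± 0.28 in control xRIP over input (adjusted p = 0.000351) was the highest among abundant members, and it was 1.46 ± 0.27 lower in Pum xRIP than in control xRIP (adjusted p = 0.00406). It and RpS29 were the 2 members called lower in Pum xRIP than in control xRIP under all 21 alternatives.

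RpL34b, a large subunit protein with a second gene, was the only member called higher in Pum xRIP relative to input. It had 1736, 2002, 2242 and 2469 CPM in Pum xRIP and 2352, 3947, 2659 and 3260 CPM in control xRIP, against 1674 CPM in the input of pum heads and 650, 791 and 1013 CPM in the other 3 inputs. The log2 change was 1.03 ± 0.28 (adjusted p = 0.0437), close to both thresholds, and the call was lost in 13 of 20 alternatives, with adjusted p up to 0.34. The input of the same fly line was the highest input and lay just under the lowest Pum xRIP library. The next abundant members were RpL18, RpLP1 and RpL10Ab, at 0.86 (adjusted p = 0.00645), 0.80 (adjusted p = 0.0517) and 0.78 (adjusted p = 0.0125). RpL18 had 5556, 5233, 6742 and 5961 CPM in Pum xRIP and 9738, 9465, 9758 and 9971 CPM in control xRIP, against 4171, 2715, 3222 and 2840 CPM in input. Its 3 groups did not overlap, and its control xRIP libraries were close to each other.

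Members with a further role of their own were among the typical ones, and were picked after their values were seen. RpS27A and RpL40, which are made as fusions to ubiquitin, averaged 2012 ± 319 and 2351 ± 800 CPM in Pum xRIP, 4594 ± 578 and 5045 ± 676 CPM in control xRIP, and 1453 ± 95.1 and 1578 ± 127 CPM in input (SD, n = 4 each). Both were called higher in control xRIP over input, by 1.66 and 1.68, and lower in Pum xRIP relative to control xRIP, by -1.19 and -1.10. RpS6, whose phosphorylation is a common readout of growth signalling, was called higher in control xRIP over input at 1.13 (adjusted p = 0.00922), and RpL5, a partner of the 5S RNA, at 1.04 (adjusted p = 0.00719). RpL21 and RpL9, of the large subunit, were at 1.85 and 1.79, next below RpL24-like.

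RpL32, better known as rp49, was looked at after its values were seen because fly studies often divide by its mRNA in quantitative PCR. It had 2622, 2044, 2253 and 2039 CPM in Pum xRIP and 5077, 4164, 4741 and 5832 CPM in control xRIP, against 2623, 1778, 2140 and 2040 CPM in input. Its level in Pum xRIP overlapped that in input (log2 change 0.06 ± 0.17, adjusted p = 0.997) and all control xRIP libraries were above both (1.21 ± 0.17 over input, adjusted p = 0.00059).

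**Figure D4:**
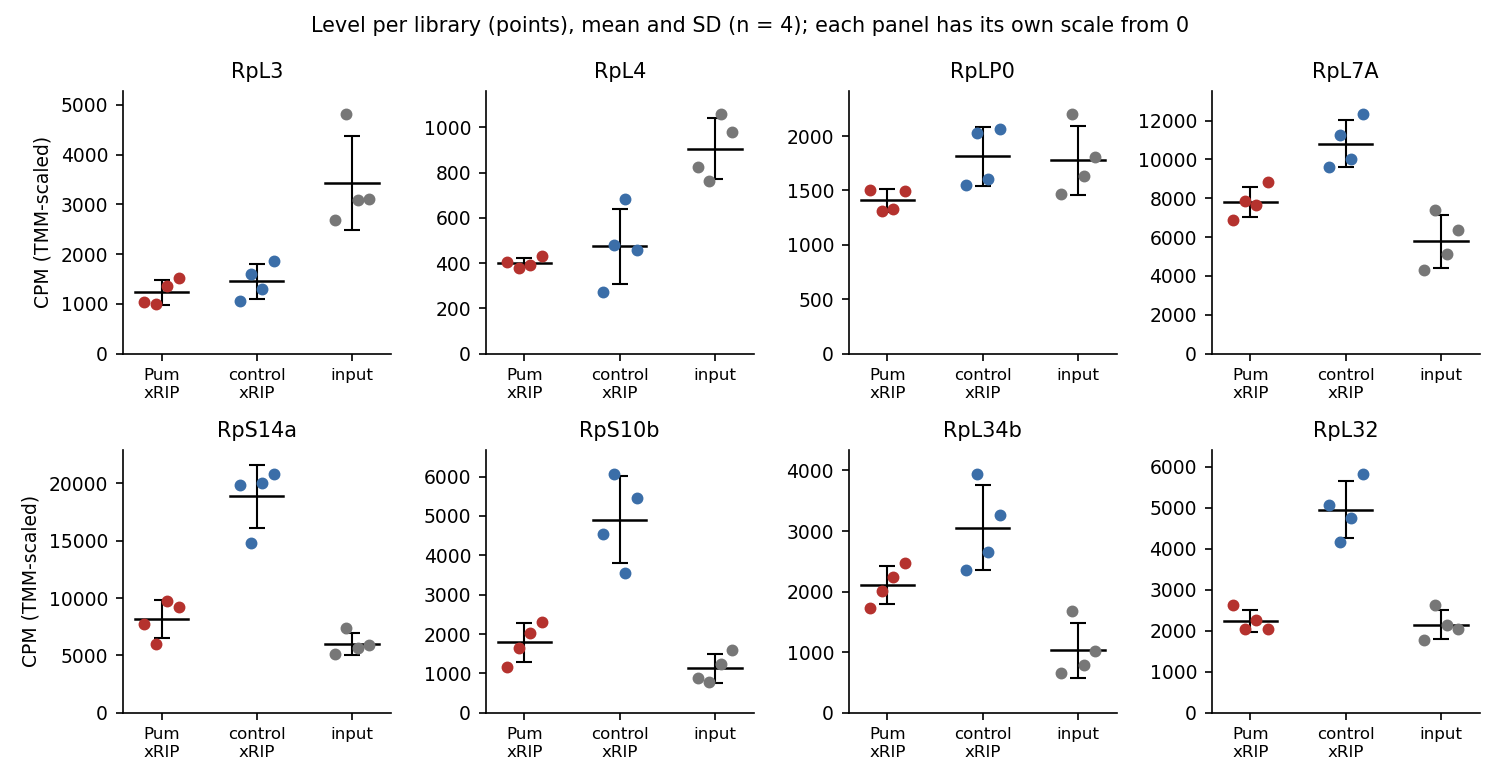
Levels of 8 members in each library (points; vertical axes, CPM scaled by TMM, linear from 0, a scale per panel) with mean and SD (n = 4) in Pum xRIP, control xRIP and input. RpL3 and RpL4 are highest in input, RpLP0 overlaps between groups, and in RpS14a, RpS10b and RpL32 the control xRIP libraries lie above all others.

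Neither of the other ribosomal proteins examined was called in any comparison. The small subunit protein sta, which has a name of its own, averaged 2742 ± 407, 3993 ± 1015 and 2542 ± 630 CPM in Pum xRIP, control xRIP and input (SD, n = 4 each), with a log2 change of 0.65 in control xRIP over input (adjusted p = 0.0658). Rack1, a scaffold on the small subunit, averaged 1743 ± 86.5, 2850 ± 169 and 2428 ± 536 CPM, a log2 change of 0.23. Of 35 translation factors and ribosome partners tested, 4 were called higher and 3 lower in control xRIP than in input, with a median of -0.91. The 4 were eIF1, which helps choose the start codon (1.84), eEF5, which eases peptide bond formation (1.76), eEF1beta, an exchange factor for eEF1A (1.59), and eIF3g1, a subunit of eIF3 (1.31). The RNA helicase eIF4A, the poly(A)-binding protein gene pAbp and eEF1alpha1 were called lower, at -2.21, -1.58 and -1.71. Of 24 genes of ribosome assembly, 0 were called higher and 2 lower (median -1.62).

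Genes paired by their symbols were far from equal in counts. Most pairs are copies of the same protein gene, but RpL24-like and RpLP0-like are related to assembly factors and are paired by name only. Within each of the 8 pairs, the last 100 bases of the annotated 3′ UTRs, or all of a shorter 3′ UTR (36 bases in RpS10a), shared no stretch of 20 bases. Coding sequence, which reads from a short 3′ UTR can reach, was not compared, so the split between copies is uncertain to that extent. RpS14a and RpS14b lie next to each other on chromosome X (dm6 chrX:7933742-7934677 and chrX:7934898-7935792, plus strand), yet RpS14b gave 8% ± 2.35, 6.36% ± 0.354 and 6.60% ± 0.823 of the pair's counts in Pum xRIP, control xRIP and input (SD, n = 4 each). Both copies rose in control xRIP over input, by 1.65 and 1.61. In the pair RpL34, RpL34a gave 12.1, 11, 11.8 and 12.8% in Pum xRIP and 19.6, 7.01, 21.2 and 17.1% in control xRIP, against 11.6% in the input of pum heads and 26.2, 28.4 and 25.6% in the other inputs. The Pum xRIP libraries stood at the share of the input of the same fly line, and below the 3 other inputs. RpL34a itself had 288 ± 56.9, 564 ± 188 and 278 ± 63.4 CPM in the 3 groups and was not called in any comparison.

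RpL24-like, whose yeast homologue is an assembly factor that precedes RpL24 on the ribosome, was within the range of core subunits in level and had the largest coefficient of variation of the abundant members in each group, at 57.9, 45 and 45.2% in Pum xRIP, control xRIP and input. It gave 12.3, 31.8, 16 and 34.3% of the counts of the pair with RpL24 in Pum xRIP replicates 1 to 4, 23.0, 33.2, 21.1 and 37.4% in control xRIP replicates 1 to 4, and 16.3 to 34.0% in input. Replicates 2 and 4 were the higher ones in both purifications. RpL38, of the large subunit, had the opposite split, with 2176, 1297, 1993 and 1162 CPM in Pum xRIP replicates 1 to 4 and 3628, 2019, 3984 and 2242 CPM in control xRIP replicates 1 to 4, against 1259 to 1628 CPM in input. As a share of all member counts, RpL7A, RpL35, RpL36 and RpS24 had the split of RpL24-like in both purifications. RpL9 and RpL40 had that of RpL38. Those genes were chosen after their values were seen, and not all members had such a split. Whether the replicates differ in handling was not tested. RpL38 was called higher in control xRIP over input (1.06, adjusted p = 0.0192), and 8 of 20 alternatives lost that call, with values down to 0.61 and adjusted p up to 0.147. The log2 change of RpL24-like was 1.88 ± 0.45 in control xRIP over input (adjusted p = 0.014) and -1.47 ± 0.44 in Pum xRIP against control xRIP (adjusted p = 0.0429), and 3 of 20 and 17 of 21 alternatives lost these calls. Without control xRIP replicate 4, its highest library there, they were 1.28 and -0.97. RpLP0-like, homologous to a yeast factor that holds the place of RpLP0 during assembly, had 0 counts in the 4 Pum xRIP libraries, 0, 175, 81 and 174 counts in control xRIP and 249 to 460 counts in input. Against a floor of 3 counts over the group, it was at least 190-fold lower in Pum xRIP than in input, counting error only, and it was called lower (adjusted p = 0.0312), although 7 of 20 alternatives lost that call. Relative to control xRIP it was at least 158-fold lower in Pum xRIP by the same floor (adjusted p = 0.0214). As 1 control xRIP library was also at 0, libraries differed by more than the counting error that the floor covers. Drops of this kind were not rare. Of other genes tested, 11.1% had a log2 change below -5.5 in Pum xRIP against input, and 7.75% in Pum xRIP against control xRIP.

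In the remaining pairs a single copy gave nearly all counts. RpS15Ab gave 2.37, 1.86 and 3.09% of its pair in Pum xRIP, control xRIP and input, RpS10a 0.0995, 0.358 and 0.157%, and RpL10Aa and RpL37-2 at most 0.284% in any group mean. The major copies RpS15Aa, RpL10Ab and RpL37-1 rose in control xRIP over input by 1.49, 1.58 and 1.52 on the log2 scale, all called.

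**Figure D5:**
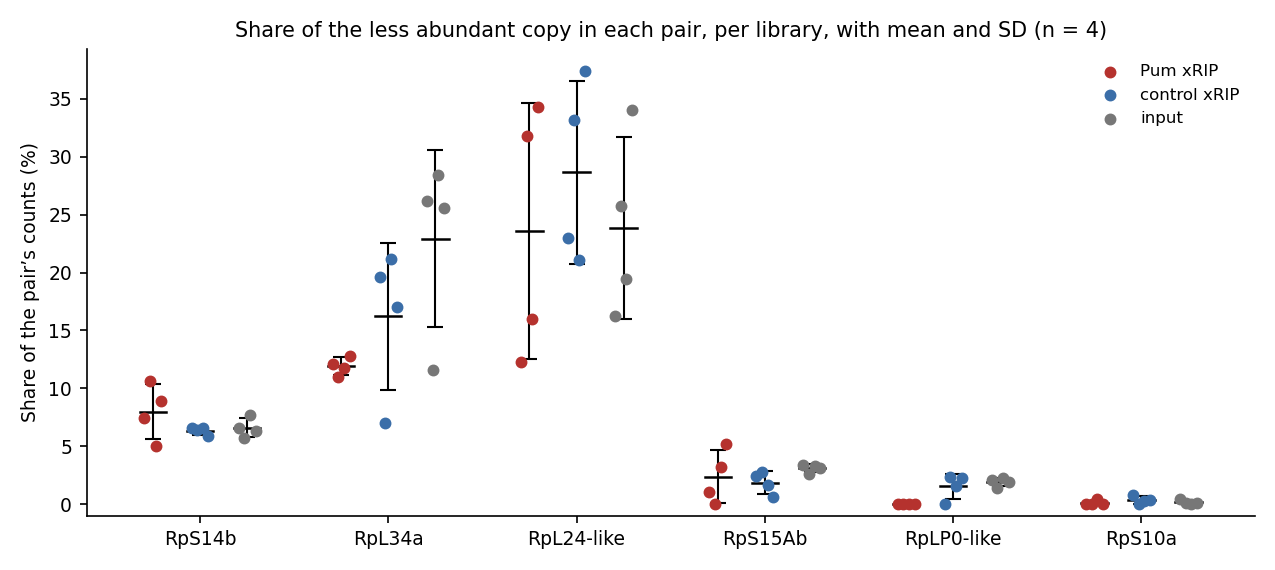
Share of the less abundant gene in the counts of its pair (percent, linear axis) for 6 pairs matched by symbol, with a point per library, mean and SD (n = 4), in Pum xRIP (red), control xRIP (blue) and input (grey). RpL34a sits at 11 to 12.8% in Pum xRIP, beside 1 input at 11.6% and 3 at 25.6 to 28.4%, and RpL24-like spreads from 12.3 to 37.4%.

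The other 19 members had far lower counts, among them core subunits such as RpS4, RpS9, RpS23, RpL8, RpL11, RpL12, RpL15, RpL23, RpL28, RpL30 and RpL41. A low count of 3′ ends here cannot be read as a lack of the mRNA, and why these genes had few counts was not tested. Among those with counts in every input, RpS15Ab, RpL12 and RpLP0-like were at 63.3 to 85.1, 24.9 to 47.0 and 30.7 to 37.2 CPM there (RpL12 was chosen after its values were seen). RpL8, RpL41, RpL11 and RpS9, for example, also had counts in every input. In some members a few libraries held most of the xRIP counts: RpS9 had 0, 0, 39 and 80 counts in Pum xRIP and 325, 0, 1 and 351 in control xRIP, against 21 to 107 in input. For RpS10a, RpS9, RpS23 and RpL11 this gave log2 changes of 3.44, 3.27, 2.99 and 2.48 in control xRIP over input with standard errors of 1.77 to 2.75, and none was called. RpL23, RpL8, RpL15 and RpL41 had the highest log2 changes of all members in Pum xRIP against control xRIP, at 1.58, 0.78, -0.03 and -0.20, with standard errors of 1.28 to 2.43. RpL15 also headed the list in Pum xRIP over input at 1.24 (adjusted p = 0.986), from 151 counts in a single library. Of the 19, 6 did not pass the expression filter. RpS5b, a copy known from the female germ line, had 0, 0 and 79 counts summed over Pum xRIP, control xRIP and input, with 75 of the 79 in the input of pum heads. RpL28 had 0, 0 and 13, RpS4 0, 0 and 8, RpL10Aa 0, 29 and 15, RpL37-2 0, 152 and 1, and RpL22 146, 0 and 0, all 146 in 1 library.

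Most members ended at a single site. A cluster is a group of neighbouring 3′ ends that the authors counted together, and the leading cluster is the one with most input counts. The leading cluster held 92.6, 91.7 and 92.5% of the counts of the 58 abundant members in Pum xRIP, control xRIP and input, and 45, 44 and 44 of them had 90% or more there. A few split their counts. In RpL32 the leading end held 43.8, 68.3 and 57.8% in the 3 groups, with 32.9 to 55.7% in Pum xRIP libraries and 58.7 to 80.2% in control xRIP libraries. In RpS26 it held 70.3 to 79.1% in Pum xRIP and 50.7 to 61.3% in control xRIP, against 55.2 to 67.0% in input. Both genes had Pum xRIP and control xRIP libraries apart, in opposite directions, and RpS26 Pum xRIP was above all inputs. They were not the only members with these groups apart. In RpL7 the leading end held 91.6 to 93.6% in Pum xRIP and 84.5 to 90.2% in control xRIP. RpL19 and RpL27 were also higher in Pum xRIP, and RpS21 was lower. The share of all genes with such a separation was not determined. In RpLP2 a single input had 98.7% at the leading end, against 23.9 to 51.3% in the others, and in RpS21 another input had 17.0% there, against 81.5 to 99.1%. Both libraries were inputs of mixed genotype. These genes were chosen after their values were seen, clusters carried no coordinates, and no test was made.

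The response element of Pum was rarer in these mRNAs than in others. TGTANATA was searched on the sense strand of the longest annotated 3′ UTR. It was found in 4 of 71 tested members (5.63%), against 23.6% of 7394 genes tested, and in reverse order, ATANATGT, in 6 members (8.45%), against 20.4%. Members have shorter 3′ UTRs, with a median of 200 bases against 344.5, so fewer matches of any 8 letters are found in them. The matches were in RpL11, RpLP0-like, RpL38 and RpS10b. With TMM, Pum xRIP over input gave no higher call for any of them, and with DESeq2 size factors in edgeR RpS10b was called higher (1.12, adjusted p = 0.0203). In that comparison RpL38 had a log2 change of 0.22, RpS10b of 0.67 and RpL11, of the particle around the 5S RNA, of -0.13, and RpLP0-like was called lower. RpS10b had the largest rise of the abundant members in control xRIP over input. Its match begins 412 bases from the end of the longest annotated 3′ UTR, which has 890 bases. Its leading 3′ end held 47.0, 50.1 and 53.0% of its counts in Pum xRIP, control xRIP and input. Clusters carried no coordinates, so whether the counted mRNAs hold the site is unknown. The site in RpS10b (dm6 chrX:19599387-19599410, plus strand) is shown with the match in capitals.
RpS10b: aagattgtTGTATATAgatttgga

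A short pyrimidine motif near the gene start was more common in the family than elsewhere. TCTTT, part of the pyrimidine-rich initiator, was searched on the sense strand from 5 bases before the annotated gene start through the first 10 transcribed bases. It was found in 23 of 71 tested members (32.4%), against 1.24% of 7329 other coding genes tested, in 0 of 69 mitochondrial ribosomal protein genes and in 0 of 57 oxidative phosphorylation genes. The following windows of 25 bases, from 10 before the start through base 15 of the transcript (genome sequence of RefSeq, Release 6; TCTTT in capitals), are shown for RpS14a and RpLP1, which are among the 5 most abundant members and have a match, the reference gene RpL32, RpL3 and RpL4, and RpL7A, which has none. RpS15 also has a match and is not shown.
RpS14a (dm6 chrX:7933732-7933756, plus): agctacgtcaacctTCTTTtttgat
RpLP1 (dm6 chr2L:419942-419966, plus): tgcatatcaactgcTCTTTccggtt
RpL32 (dm6 chr3R:30046147-30046171, minus): ccaccagcttttTCTTTtcgcttct
RpL3 (dm6 chr3R:11221884-11221908, plus): gtcggaatcgttTCTTTtccgtttt
RpL4 (dm6 chr3R:27922811-27922835, plus): tttccggcagctcTCTTTctttctt
RpL7A (dm6 chrX:6533334-6533358, minus): gcatagcctctcacctcggtatatc
Members with and without a match were called. Among the 58 abundant members, 13 of 20 with the motif and 33 of 38 without it were called higher in control xRIP over input, with medians of 1.23 and 1.42, and RpL3 and RpL4 both have a match. A match is a description of letters near an annotated start, not a mapped initiation site.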

How the data were processed

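The authors, per the study's methods, used fastp for trimming and STAR 2.6.1b for mapping to dm6 (Ensembl release 93) with no spliced alignment, removed signal beside A runs of the genome, grouped 3′ ends into clusters, and deposited unnormalised counts of genes and of these clusters. Per the labels, libraries were made with the QuantSeq REV kit. Counts have no molecular identifiers, so floors cover counting error only. Members and lists were chosen with earlier results of these data known. Symbols, positions and 3′ UTRs came from Ensembl release 115, and 10345 of 10422 identifiers matched. All 12 libraries entered 1 fit in edgeR 4.0.16 (R 4.3.3) with TMM scaling, filterByExpr and the quasi-likelihood test. The script was tested on simulated data with known changes. Genes were named by rule: the 4 highest and 4 lowest changes per comparison, the 5 most abundant in input, copies, calls against the majority, members that failed the filter, members with a response element, sta and Rack1; others are marked in the text, and some genes are not reported here. Alternatives used DESeq2 1.42.0, other scalings and left-out libraries. The groups share numbers 1 to 4. Over all genes tested, deviations of same-numbered xRIP libraries correlated at only 0.001 to 0.021. Several members nonetheless deviated together, among them RpL24-like, RpL38, RpL7A, RpL35, RpL36, RpS24, RpL9 and RpL40, and the main fit had no replicate block.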

Additional observations from a re-analysis of the deposited data

Results flagged for a closer look

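One value stood apart within its group of 4 libraries. RpS14a had 14822 CPM in control xRIP replicate 2, against 19881 to 20838 CPM in the other control xRIP libraries. It was the only such value among 66 groups of libraries examined, of which chance gives about 3.3.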

How the results depend on the processing

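Counts of calls moved with the scaling and with single libraries. Relative to input, Pum xRIP had 1 member called higher, but 18 with DESeq2 size factors in edgeR, 13 with DESeq2, 3 with library totals, and 0 with TMM factors computed without the members, with no expression filter or without the inputs of mixed genotype. The 3 members called lower became 1 with no filter or without those inputs. Leaving out a library gave 0 to 1 higher (1 only without the input of pum heads or Pum xRIP replicate 1) and 1 to 4 lower. The 27 members called lower in Pum xRIP relative to control xRIP became 4 with size factors, library totals or DESeq2 on 3 or 2 groups, and 12 to 27 when a library was left out. Only these 2 groups in edgeR gave 14. A replicate block gave 16. Over all genes tested, deviations from the group means correlated at 0.001 to 0.021 between same-numbered xRIP libraries, and at up to 0.027 between others. Counting error also lowers such a correlation, so it cannot settle whether the numbers pair libraries. Control xRIP over input was steadier: 34 to 46 higher calls without a library and 40 to 54 otherwise, and 2 lower calls with library totals or 1 to 3 without a library (2 without control xRIP replicate 2 or 3 or the input of pum heads, 3 without control xRIP replicate 4). Median log2 changes of members were 0.82 and 0.53 in Pum xRIP over input, 1.52 and 1.21 in control xRIP over input and -0.67 and -0.67 in Pum xRIP against control xRIP, with size factors and library totals in that order. The shorter motif TGTANAT was in 11 members. For named genes, 1596 of 1813 values under alternatives kept direction and side of the threshold, 97 lost a call, 26 gained one and 94 moved without a call. Members at 0 to 3 counts in a library cannot be compared at this depth.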
